A study of Mus musculus with 20 samples.

Results

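The villus tip of the mouse ileum, fraction V0, was compared with the villus base, fraction V3, by miRNA array. The comparison took the 4 arrays whose source name gives V0 and the 4 whose source name gives V3, 8 of the 20 arrays of the series. V1 and V2, the fractions between them, were used for the order along the villus. In the main fit, which leaves out the array slide, the crypt fraction C1 entered only the estimate of the spread. Where slide or a covariate was added, C1, V1 and V2 arrays also helped to set those terms and so the V0 minus V3 differences. Of the 655 probes on the array, 321 were tested, those with a detection p-value of at most 0.01 on all 4 arrays of V0 or on all 4 of V3. Of these 321, 212 were detected on all 8 arrays, 87 were detected in full only in V0 and 22 only in V3.

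All samples were ileum epithelial cells of male C57BL/6J wild type mice aged 4 months, with no treatment or mutation in either group. V0 was the supernatant of the first incubation in chelating buffer with stirring, and V1, V2, V3 and then C1 were shaken off the same tissue by hand in that order. No step sorted the cells by type, so each fraction is what came loose at its step. The submitters describe 4 mice, but no label ties an array to a mouse, so the p-values measure only the spread between these arrays.

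Enterocytes are born in the crypt, mature as they move up the villus and are shed at its tip, so the comparison spans the last stretch of their life. A miRNA is a short RNA that lowers the stability and translation of mRNAs that pair with its seed, the bases near its 5′ end. Some miRNAs mark cell types: miR-192, miR-194, miR-215 and the miR-200 family mark gut epithelium, miR-143 and miR-145 are made in the gut by mesenchymal cells such as smooth muscle, and miR-150, miR-223 and miR-142-3p by white blood cells.

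No miRNA passed the test between tip and base in the fit without slide. At an adjusted p of at most 0.05 in limma and a difference of at least 2-fold, 0 of 321 probes were called (0%), and the smallest adjusted p was 0.0693. With slide as a fixed block limma called 7, among them miR-701, miR-709 and miR-92a* lower in V0. At an unadjusted p under 0.05, limma gave 18 probes higher in V0 (5.61%) and 10 lower (3.12%). A rank-sum test on the 8 arrays gave 22. It was exact except for probes with tied values, where a normal approximation was used. The smallest two-sided p of the exact rank-sum test is 0.0286, reached only without overlap. The V0 and V3 arrays did not overlap for 20 probes (6.23%), with V0 wholly above V3 for 12 (3.74%) and wholly below for 8 (2.49%). The 12 were miR-199b*, miR-99b, miR-143, miR-125b-5p, miR-150, miR-486, miR-133a, miR-181a, miR-24-2*, miR-145, miR-376b* and a probe shared by miR-466a-3p and its relatives. Of these 12, 8 were not detected on all 4 V3 arrays and so were tested only through V0, where they are high. The 8 lower were miR-701, miR-92a*, miR-208a, miR-709, miR-532-3p, miR-466f-3p, miR-483* and an unnamed probe with a solexa label. Of these, miR-92a*, miR-208a, miR-483* and the solexa probe were not detected on all 4 V0 arrays. They were tested only through V3, where they are high. Without the authors' normalization the median difference over all probes was 0.75 in place of -0.08, and the 8 probes lower in V0 still had the lower mean. Among the 7 of them with a miRNA name the difference then ran from -0.06 for miR-483* and -0.23 for miR-532-3p to -1.47 for miR-701. All values below are log2 of the normalized signal, and differences are V0 minus V3, so 1 is 2-fold.

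The mature sequences of the miRNAs on which the description turns are shown so that shared seeds can be seen. They are from RefSeq with coordinates on GRCm38.p6, written 5′ to 3′ with bases 2 to 8, the seed, in capitals.
miR-24-2* (miR-24-2-5p, chr8:84208839-84208860, + strand): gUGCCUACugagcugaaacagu
miR-99b (miR-99b-5p, chr17:17830194-17830215, + strand): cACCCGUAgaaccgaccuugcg
miR-100 (miR-100-5p, chr9:41531437-41531458, + strand): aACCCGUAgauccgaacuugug
miR-125a-5p (chr17:17830817-17830840, + strand): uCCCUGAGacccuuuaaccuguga
miR-125b-5p (chr9:41581940-41581961 and chr16:77646279-77646300, + strand): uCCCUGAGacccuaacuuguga
let-7e (let-7e-5p, chr17:17830366-17830387, + strand): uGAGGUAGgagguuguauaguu
miR-701 (miR-701-5p, chr5:111004170-111004190, + strand): uUAGCCGCugaaauagaugga
miR-92a* (miR-92a-2-5p, chrX:52741892-52741913, - strand): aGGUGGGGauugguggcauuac
miR-532-3p (chrX:7248419-7248440, - strand): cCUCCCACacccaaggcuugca

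miR-99b and miR-100 share the seed ACCCGUA and differ at 4 of 22 positions, and miR-125a-5p and miR-125b-5p share the seed CCCUGAG. miR-99b, let-7e and miR-125a-5p lie within 1 stretch of chromosome 17. miR-100 and miR-125b-5p lie together on chromosome 9, where the hairpins of miR-100, let-7a-2 and miR-125b-1 span 50578 bases. The array read each of them with its own probe, and how far a probe also captures a near-identical miRNA was not tested.

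One V3 array stands apart and touches many of the results. Before normalization V3 replicate 4 had 258 detected probes, while its fellow V3 arrays had 384 to 477 and the V0 arrays 326 to 466. Over the 321 probes its rank correlation with the other V3 arrays was 0.04 to 0.27, while V3 replicates 1 and 2 correlated at 0.94. It gave the lowest of the 8 values for 90 of the 321 probes and the highest for 117. V0 replicate 1 was the V0 array with the fewest detected probes (326) and correlated at 0.58 to 0.68 with the other V0 arrays. Of the 65 probes at least 2-fold higher in V0 (20.2%), 29 were still so without V3 replicate 4, and of the 34 at least 2-fold lower (10.6%), 21 were. It also read miR-1, a muscle miRNA detected on no other V3 or V0 array, at 15.09. Whether it is a weak or a mixed-up sample cannot be told from the labels and was not tested, and every V3 mean that includes it carries that doubt. Differences without that array are given beside those with it.

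miR-24-2*, the passenger strand of the hairpin that yields miR-24, had the smallest p. Its signal was 11.70, 10.99, 11.26 and 10.32 on V0 replicates 1 to 4 and 9.24, 9.63, 8.63 and 8.89 on the V3 arrays. The groups did not overlap, and the signal was detected on all 4 V0 arrays and on 2 of 4 V3 arrays. The difference was 1.97 (SE 0.42, limma adjusted p = 0.0693), and it was 1.90 without V3 replicate 4. miR-24 itself, which also comes from a locus shared with miR-23b and miR-27b, differed by 0.49 (95% interval -0.57 to 1.55), and by 0.25 without V3 replicate 4.

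miR-199b*, the 5′ arm of a hairpin linked to fibroblasts and other mesenchymal cells, showed the widest gap of the miRNAs whose arrays did not overlap. V0 arrays read 13.76, 12.63, 12.66 and 12.19, and V3 arrays read 9.74, 10.08, 9.33 and 10.76. Every V0 array was more than 1 log2 unit above the highest V3 array. The difference was 2.83 (SE 0.66, limma adjusted p = 0.0852), and 3.09 without V3 replicate 4.

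**Figure D1:**
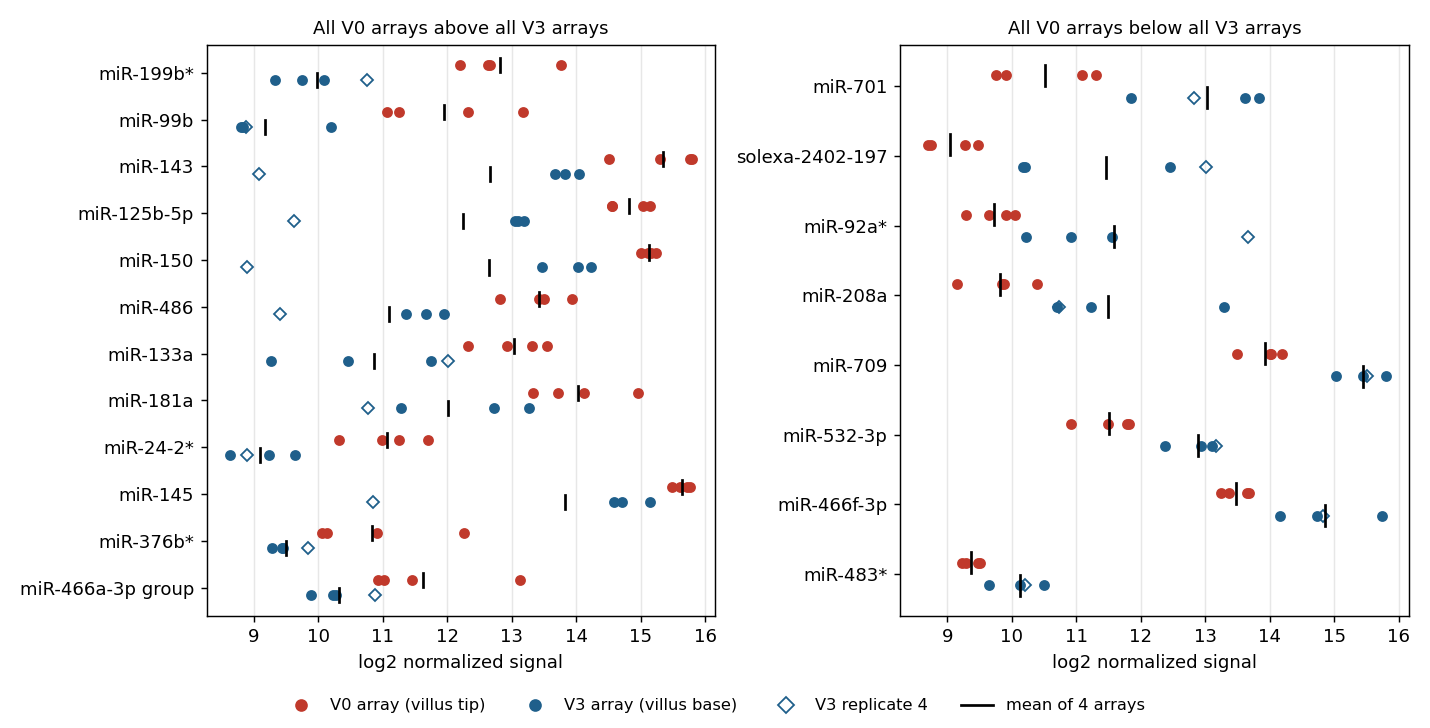
Log2 normalized signal (x axis) of the 12 probes whose V0 arrays all lay above the V3 arrays (left) and of the 8 whose V0 arrays all lay below (right). Points are arrays, V0 in red and V3 in blue with V3 replicate 4 as an open diamond, and black bars are means of 4 arrays; for miR-143, miR-125b-5p, miR-150, miR-486 and miR-145 the diamond lies far below the other V3 points.

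The miR-99, miR-100 and miR-125 families had 4 probes tested, with differences of 2.58 to 2.80 and a median of 2.75 against -0.08 over all 321 probes, and 0 passed the test. Of the 4, miR-99b, miR-100 and miR-125a-5p were detected on 1, 1 and 2 V3 arrays and were tested only through V0, so their direction is partly set by the detection filter. miR-99b read 11.06, 13.17, 12.33 and 11.26 in V0 and 10.20, 8.83, 8.81 and 8.89 in V3, mostly near background. miR-125b-5p, which is abundant in stromal and muscle tissue, read 14.56, 15.03, 15.14 and 14.56 in V0 and 13.19, 13.05, 13.10 and 9.63 in V3. Both were free of overlap, and V3 replicate 4 alone pulled the miR-125b-5p mean of V3 down.

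miR-100 read 9.94, 13.40, 12.91 and 11.75 in V0 and 10.35, 8.66, 8.83 and 9.21 in V3, so V0 replicate 1 fell within the V3 range. miR-125a-5p read 12.72, 14.76, 14.48 and 14.19 in V0 against 13.64, 13.31, 8.98 and 9.02 in V3. Here the V3 arrays fell into a pair at the level of V0 and a pair near background, so the groups overlapped. The pairs were those of the slides, with replicates 1 and 2 on slide 3 and replicates 3 and 4 on slide 2. On slide 2 alone the difference was 5.34, while on slides 1 and 3 V0 read 12.72 and 14.76 against 13.64 and 13.31. The limma adjusted p was 0.323 for miR-99b, miR-100 and miR-125b-5p and 0.548 for miR-125a-5p. Without V3 replicate 4 the family median was 2.37, with 2.68 for miR-99b, 2.72 for miR-100, 2.06 for miR-125a-5p and 1.71 for miR-125b-5p. Another member, miR-99a, which differs from miR-100 at 1 of 22 positions, was detected on 3 V0 arrays and on 0 V3 arrays and was not tested.

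let-7e, the neighbour of miR-99b and miR-125a-5p on chromosome 17, is a member of the let-7 family that holds back proliferation genes. It read 14.00, 15.21, 13.05 and 13.08 in V0 and 13.10, 13.85, 12.08 and 8.93 in V3, so the groups overlapped. The means were 13.84 ± 1.02 and 11.99 ± 2.17 (SD, n = 4 each), a difference of 1.85 (SE 1.05, limma adjusted p = 0.63), which was 0.83 without V3 replicate 4. Across the let-7 family, 8 of 9 probes had the higher mean in V0, as did 45.5% of all tested probes. Of the 9, 2 were tested only through V0. At least 2-fold higher were 5, against 20.2% of all tested probes, and the median was 1.12. Without V3 replicate 4 the family median was 0.00 and 0 of 9 were 2-fold higher. let-7c shows where that gap lay, with 15.56 to 15.68 over the V0 arrays, 15.72, 15.83 and 15.30 on V3 replicates 1 to 3 and 9.34 on V3 replicate 4.

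Of the 3 smooth muscle probes, 2 were tested, and 0 passed the test. miR-143 read 14.51, 15.77, 15.80 and 15.30 in V0 and 14.05, 13.68, 13.83 and 9.09 in V3. miR-145, its partner from the same transcript, read 15.48, 15.62, 15.77 and 15.72 in V0 and 14.71, 14.59, 15.14 and 10.84 in V3. Neither overlapped between the groups, and both had 1 low V3 array, replicate 4. The differences were 2.68 (SE 0.99) and 1.82 (SE 0.64), with a limma adjusted p of 0.323 for each, and 1.49 and 0.83 without that array. The third probe of the list, miR-145*, was detected on 3 V0 arrays and on 0 V3 arrays. The signal summed over the 3 probes was 69596 to 114893 units in V0, 38271 to 51086 on V3 replicates 1 to 3 and 2910 on V3 replicate 4.

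Of the other mesenchymal markers, miR-199a-3p was read by 2 probes. The one shared with miR-199b gave 15.40, 15.38, 14.53 and 14.95 in V0 and 13.08, 13.26, 13.70 and 15.52 in V3. The other, listed as miR-199a-3p:9.1, gave 15.42, 14.44, 14.15 and 14.26 in V0 and 10.94, 12.17, 11.65 and 15.24 in V3. On both probes V3 replicate 4 was as high as V0 and the other V3 arrays were lower. The differences were 1.18 (limma adjusted p = 0.548) and 2.07 (limma adjusted p = 0.323) with all arrays. Without V3 replicate 4 they were 1.72 and 2.98, and the second then passed the test, the only call of that setting (limma adjusted p = 0.0236). miR-214, made from the same transcript as a miR-199a, differed by 1.01, and by 0.32 without V3 replicate 4. The stromal list holds miR-199b* and miR-199a-5p but not the probe miR-199a-3p:9.1. Of its 5 tested probes 4 had the higher mean in V0 (median 1.18, and 1.72 without V3 replicate 4). Among them miR-199a-5p differed by 1.29, or 2.02 without V3 replicate 4. miR-152 differed by -0.02, or -0.78 without that array.

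Of the blood cell miRNAs, 0 passed the test. The 8 leukocyte probes had a median difference of 1.39, which was 0.65 without V3 replicate 4. Of the 8, 5 were tested only through V0, the fraction where they were detected in full, so the count of higher means carries no weight, and only miR-150 was free of overlap. miR-150, abundant in mature lymphocytes, read 15.24, 15.16, 15.11 and 15.00 in V0 and 14.23, 14.02, 13.47 and 8.90 in V3, with no overlap. Its difference was 2.47 (SE 1.25, limma adjusted p = 0.581), and 1.22 without V3 replicate 4. miR-223, a myeloid miRNA, read 11.87, 14.73, 14.44 and 13.88 in V0 and 11.93, 10.70, 11.86 and 11.76 in V3. V0 replicate 1 lay at the V3 level and the other 3 V0 arrays lay above all V3 arrays, and the difference was 2.17 (SE 0.85, limma adjusted p = 0.395), or 2.23 without V3 replicate 4.

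miR-486, made in red cell precursors and muscle, read 13.93, 12.83, 13.42 and 13.49 in V0 and 11.36, 11.96, 11.68 and 9.41 in V3. The groups did not overlap, and the difference was 2.32 (SE 0.86, limma adjusted p = 0.323), or 1.75 without V3 replicate 4. miR-451, the defining miRNA of red cells, overlapped widely, with 11.99, 13.80, 13.70 and 9.95 in V0 and 11.49, 9.71, 13.55 and 10.42 in V3. It differed by 1.07 (95% interval -0.84 to 2.98), or 0.78 without V3 replicate 4, and miR-144, from the same transcript, was detected on none of the 8 arrays. The endothelial miR-126-5p differed by 1.88 and miR-126-3p by 1.02, or 2.32 and 1.23 without V3 replicate 4, and the arrays of both overlapped.

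miR-181a, which acts in lymphocyte development and is also made in many other tissues, read 13.71, 14.95, 14.12 and 13.34 in V0 and 13.27, 12.72, 11.28 and 10.77 in V3. The lowest V0 array was only just above the highest V3 array. The difference was 2.02 (SE 0.88, limma adjusted p = 0.548), and 1.60 without V3 replicate 4.

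miR-133a, a miRNA of striated muscle, read 12.93, 13.55, 13.31 and 12.33 in V0 and 10.45, 9.26, 11.75 and 12.01 in V3, with no overlap and a difference of 2.16 (SE 0.78, limma adjusted p = 0.323) that was 2.54 without V3 replicate 4. The other striated muscle markers did not all follow it. Of the 5 tested probes of that list, 3 had the higher mean in V0 and 2 the lower. miR-1, which shares its transcripts with miR-133a, was detected on none of the V0 arrays (8.83 to 9.19) and on 1 V3 array, replicate 4, at 15.09. miR-133b differed by 0.49, or 0.73 without V3 replicate 4, and miR-206 was detected on 1 V0 array. The lower ones were miR-208a at -1.67, with V0 wholly below V3, and miR-208b at -0.61. Without V3 replicate 4 they were -1.92 and -0.40, and both were tested only through V3. The summed signal of the 8 probes was 10528 to 20496 units in V0, 7040 to 14047 on V3 replicates 1 to 3 and 70900 on V3 replicate 4.

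Epithelial miRNAs were high in both fractions. miR-192 read 15.32 to 15.52 in V0 and 15.56, 15.42, 15.56 and 12.45 in V3, and miR-215, which has the same seed, read 15.90 to 15.91 and 15.90, 15.90, 15.65 and 14.02. miR-194 read 15.09, 14.37, 14.82 and 14.48 in V0 and 14.59, 14.48, 14.23 and 15.16 in V3. The 3 miRNAs overlapped between the groups, and the V3 replicate 4 value was low for miR-192 and miR-215 and high for miR-194. Their differences were 0.66, 0.54 and 0.07, with 95% intervals of -0.36 to 1.68 for miR-192 and -0.70 to 0.85 for miR-194, and without V3 replicate 4 they were -0.11, 0.09 and 0.25. Quantile normalization gives every array the same highest value, 15.91, and miR-215 held it on 3 V0 arrays, so its signal lay at the top of the scale and a difference there can be compressed. Of 8 miR-200 family probes, 4 had the higher mean in V0 and 4 the lower, with a median of 0.06. Of the 3 miRNAs of secretory cells, miR-375 differed by -0.67 (95% interval -2.57 to 1.23), miR-7a by 0.43 and miR-7b by 0.83, and without V3 replicate 4 they differed by -0.79, -0.02 and 0.13.

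The part of smooth muscle, stromal and blood cell miRNAs in the differences of the other miRNAs was not tested. In such bulk samples, fewer cells of a type and less RNA per cell cannot be told apart.

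**Figure D2:**
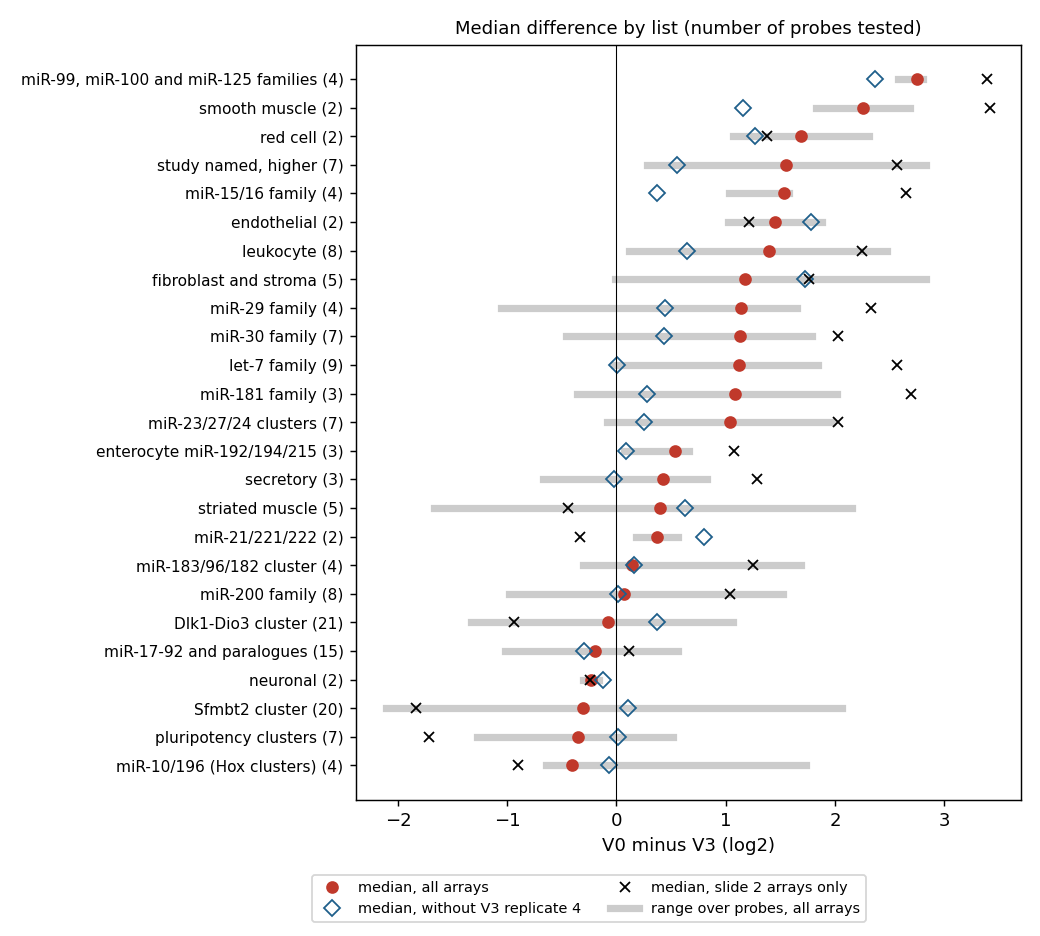
Median V0 minus V3 difference (x axis, log2) over the tested probes of each list with at least 2 tested, with the number tested in parentheses. Red points use all arrays, open diamonds leave out V3 replicate 4, crosses use the 2 V0 and 2 V3 arrays of slide 2, and grey bars span the probes; the let-7 diamond lies at 0.00 and that of the miR-99, miR-100 and miR-125 families at 2.37.

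Other broadly expressed families also had smaller medians without V3 replicate 4, though not as near 0 as let-7. The miR-15/16 family, which restrains the cell cycle, had 4 of 4 tested probes at least 2-fold higher in V0 (median 1.53), against 20.2% of all tested probes. Without V3 replicate 4 it had 1 of them (median 0.37). The miR-30 family had a median of 1.13 over 7 probes, the miR-29 family, which targets collagen mRNAs, 1.14 over 4 and the miR-23/27/24 clusters 1.04 over 7. Without V3 replicate 4 these medians were 0.43, 0.45 and 0.25. Tested only through V0, where they are high, were 2 probes each of the miR-15/16 family, the miR-29 family and the miR-23/27/24 clusters and 1 of the miR-30 family. The detection filter therefore partly sets the direction of these families. Of single members, miR-195 of the miR-15/16 family rose from 1.53 with all arrays to 2.55 without V3 replicate 4. miR-24-2* went from 1.97 to 1.90 and miR-30e* fell from 1.68 to 1.08. By contrast the cluster of miR-17, miR-20a and miR-92a and its paralogues, which favour proliferation, had the lower mean in V0 for 13 of 15 probes, with a small median of -0.19 that was -0.30 without V3 replicate 4, 0.78 without normalization and 0.093 with arrays centred on their median.

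**Figure D3:**
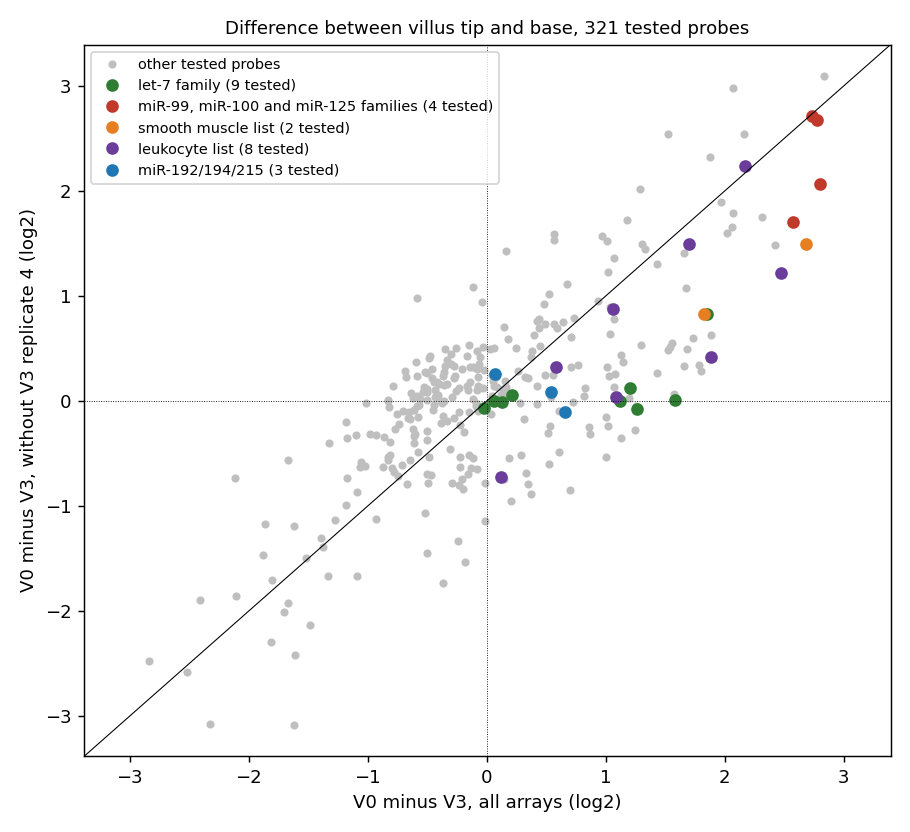
Difference V0 minus V3 (log2) of the 321 tested probes with all arrays (x axis) and without V3 replicate 4 (y axis), with the line of equality. The let-7 family (green) lies along 0 on the y axis except let-7e at 0.83, whereas the miR-99, miR-100 and miR-125 families (red) stay between 1.71 and 2.72. Of the 4 red probes, 3 were tested only through V0, where they are high.

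Some miRNAs were lower at the tip. miR-701 read 11.30, 11.09, 9.75 and 9.90 in V0 and 13.61, 13.83, 11.84 and 12.83 in V3. The groups did not overlap, although the arrays within each group spread over more than 1 unit. The difference was -2.51 (SE 0.79, limma adjusted p = 0.323), and -2.58 without V3 replicate 4. With slide as a fixed block it passed the test (-2.83, limma adjusted p = 0.00514).

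miR-92a*, the passenger strand of a miR-92a hairpin on the X chromosome, read 9.91, 9.29, 9.64 and 10.05 in V0 and 10.22, 10.92, 11.55 and 13.66 in V3. Its difference of -1.86 (SE 0.65, limma adjusted p = 0.323) was -1.17 without V3 replicate 4, which held the highest value, and with slide as a fixed block it passed the test (limma adjusted p = 0.0416). miR-92a* was detected on 3 V0 arrays and on 4 V3 arrays, so it was tested only through V3, where it is high. The guide strand miR-92a differed by -0.19, or -0.30 without V3 replicate 4. miR-532-3p, from an X-linked cluster, read 10.91, 11.49, 11.82 and 11.78 in V0 and 12.93, 13.10, 12.37 and 13.17 in V3, both tight groups without overlap. It differed by -1.39 (SE 0.65, limma adjusted p = 0.548), or -1.30 without V3 replicate 4, but by only -0.23 without normalization.

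miR-709 was bright on every array, at 13.49, 14.00, 14.19 and 14.02 in V0 and 15.03, 15.44, 15.80 and 15.50 in V3, a gap of -1.51 (SE 0.93, limma adjusted p = 0.646) that was -1.49 without V3 replicate 4. With slide as a fixed block it passed the test (limma adjusted p = 0.0206). The SD was 0.30 in V0 and 0.32 in V3, small beside the SE, which pools the spread of all fractions. miR-208a, encoded in a heart myosin gene, differed by -1.67, miR-466f-3p by -1.38 and miR-483*, from the Igf2 gene, by -0.74, or -1.92, -1.39 and -0.72 without V3 replicate 4. The unnamed solexa probe differed by -2.41, or -1.89 without V3 replicate 4, and was detected on 2 V0 arrays and on all 4 V3 arrays.

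The fractions between tip and base give the levels along the villus. A linear trend over V3, V2, V1 and V0 called 0 of 374 probes in limma (0%, smallest adjusted p 0.0788), and 26 had an unadjusted p under 0.05 (6.95%), 17 of them with a positive slope towards V0 and 9 with a negative one. Of the 12 non-overlapping probes higher in V0, 9 had their largest step between neighbouring fractions from V1 to V0, the exceptions being miR-150, miR-145 and the miR-466a-3p probe. Choosing probes for high V0 values can favour such a step, so this count is no independent evidence of a step at the tip. How far the choice did so was not tested. Of the 146 tested probes with the higher mean in V0, the step was the largest for 54. Over all tested probes it was the largest for 144 of 321. Steps carry their sign, so for a probe that falls at every step the largest is only the smallest fall. From base to tip, miR-24-2* had means of 9.1, 9.55, 9.45 and 11.07. In the same order miR-486 had 11.10, 10.64, 10.84 and 13.42, and miR-125b-5p had 12.24, 12.30, 12.85 and 14.82. miR-701 ran the other way, with 13.03, 11.84, 11.86 and 10.51.

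**Figure D4:**
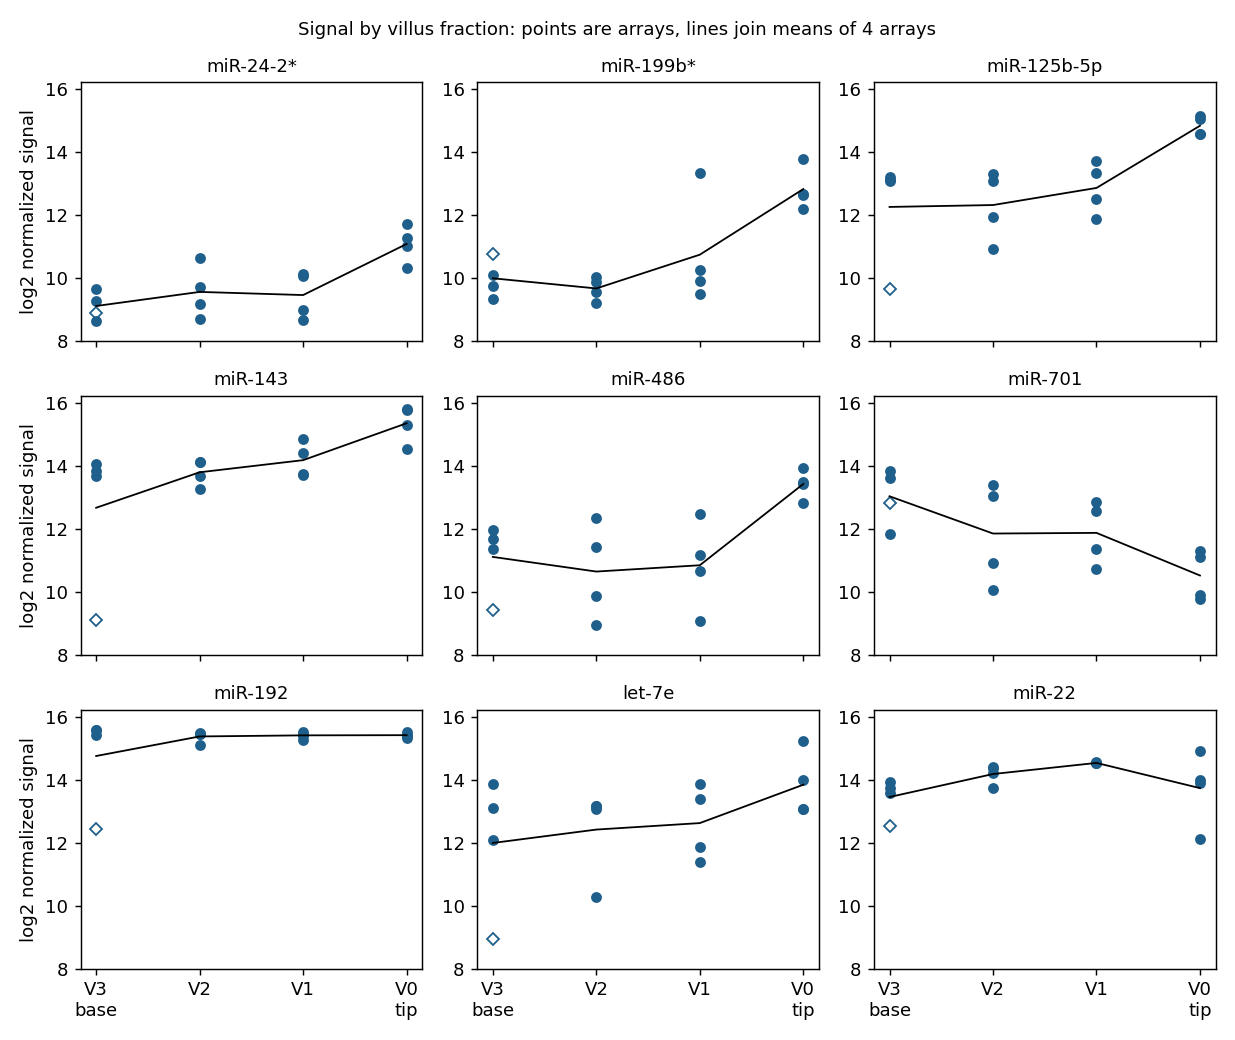
Log2 normalized signal (y axis) of 9 miRNAs in fractions V3, V2, V1 and V0 (x axis), with arrays as points, V3 replicate 4 as an open diamond, and a line through the means of 4 arrays. The mean of miR-24-2* goes from 9.45 at V1 to 11.07 at V0, while miR-192 stays near 15.4 apart from the diamond at 12.45.

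The miRNAs that the study named as higher or lower along the crypt-villus axis were chosen on arrays that include V0, so their values here are no independent evidence of direction. The 7 probes of the first list had a median of 1.55, which was 0.55 without V3 replicate 4, and 5 were at least 2-fold higher with all arrays and 2 without that array. Those 2 were miR-199b* (3.09) and miR-486 (1.75), both without overlap. Of the 7, 5 were tested only through V0, miR-199b* and miR-486 among them. miR-29b read 12.10, 14.41, 13.88 and 13.68 in V0 and 13.36, 12.70, 12.83 and 8.96 in V3, a difference of 1.55 (SE 1.09, limma adjusted p = 0.685), or 0.55 without V3 replicate 4. miR-22 read 12.12, 13.97, 14.91 and 13.91 in V0 and 13.93, 13.59, 13.74 and 12.53 in V3, a difference of 0.28 (95% interval -0.64 to 1.2), or -0.02 without V3 replicate 4. Both overlapped between the groups.

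miR-378, from an intron of the coactivator gene Ppargc1b, differed by 1.25, its partner strand miR-378*, which is not on that list, by 0.61 and miR-7b by 0.83. Without V3 replicate 4 these were -0.04, -0.10 and 0.13. Of the miRNAs named as lower, miR-335-5p differed by -0.36 (95% interval -1.21 to 0.49), and miR-302b, an embryonic stem cell miRNA detected on 3 arrays of each fraction and so not tested, by -0.71. V3 replicate 4 held the highest value of both, 12.80 and 12.47, and without it they differed by 0.16 and -0.03.

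The arrays lay on slides that did not match the fractions evenly. V0 replicates 1 and 2 were on slide 1 and V3 replicates 1 and 2 on slide 3, while slide 2 held replicates 3 and 4 of both. With slide as a fixed block, limma called 7 probes, higher in V0 for miR-183 (3.48), miR-98 (2.67) and miR-30e* (2.51) and lower for miR-701 (-2.83), the unnamed solexa probe (-2.77), miR-92a* (-2.47) and miR-709 (-1.73). Leaving out V3 replicate 4 as well gave 5 calls, which were miR-183, miR-199a-3p:9.1, miR-701, miR-709 and another unnamed solexa probe. With slide as a random block 0 were called.

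The 3 higher calls had a positive difference on slide 2 only, and between slides 1 and 3 it was negative or near 0. miR-183, a sensory and epithelial miRNA, read 14.30 and 14.65 in V0 on slide 1 and 15.34 and 15.32 in V3 on slide 3, a difference of -0.86, but 14.26 and 14.41 in V0 against 11.05 and 9.16 in V3 on slide 2, a difference of 4.23. miR-98, a let-7 relative, differed by -1.10 and 3.51, and miR-30e* by -0.07 and 3.43. The calls lower in V0 were all among the probes without overlap. Their sign is therefore fixed in any subset of arrays and is no check on slide. The differences were -2.52 and -2.50 for miR-701, -1.49 and -1.54 for miR-709, -0.97 and -2.76 for miR-92a* and -1.47 and -3.36 for the unnamed solexa probe. The same limit holds for miR-24-2* (1.91 and 2.03), miR-199b* (3.28 and 2.38), miR-99b (2.60 and 2.94) and miR-143 (1.28 and 4.09). Of the miRNAs whose arrays overlapped, miR-378 (-0.79 and 3.30) and miR-22 (-0.71 and 1.27) changed sign.

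The median SE of a difference was 0.76, which gives a median 95% interval of 1.60 to either side, so for a typical probe a 2-fold difference was not detectable with these arrays.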

How the data were processed

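Total RNA of each fraction was hybridised by the authors to Illumina bead arrays and read on an iScan. The authors summarised the beads of each probe in GenomeStudio as an average signal intensity and quantile-normalized the arrays jointly, with background left in. Deposited were the intensity values prior to and following normalization and a detection p-value for each of them. The GenomeStudio version was not given in the sources used here. The deposited value table equals the normalized intensity (largest difference 0).

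Log2 values of the normalized intensity of the 20 arrays entered a limma 3.58.1 model (R 4.3.3) with a mean for each fraction and eBayes moderation, which the SE values carry. P-values were adjusted by Benjamini-Hochberg over 321 probes. Calls required an adjusted p up to 0.05 with a 2-fold or larger difference. SD values are between arrays. The fit was tested on simulated data. Groups came from the source names and slides from the array titles; replicate numbers only name arrays.

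The members, 28 lists and naming rule were chosen with earlier results of these data known. Named were up to 10 non-overlapping miRNAs in each direction, the study's named miRNAs, up to 3 per list with the smallest p, and defining markers; others, such as the passenger or partner strands, miR-376b*, miR-125a-5p, miR-98, miR-199a-3p:9.1 and the solexa probe, were named after their values were seen. Lists were described by counts and medians and not tested. Sequences were found in RefSeq for 17 of 47 miRNA names looked up. Alternatives changed the normalization, background, detection filter, slide, arrays, spread model and test. Leaving out weak arrays, a detected-probe covariate, fixed probes while an array is left out, and slide together with V3 replicate 4 were added after seeing the data. The study's RT-qPCR, cell line and patient data were not analysed here.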

Additional observations from a re-analysis of the deposited data

Results flagged for a closer look

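In 13 of 96 groups of 4 arrays (13.5%), 1 array lay far from the other 3 by Dixon's test. V3 replicate 4 was that array 9 times, always as the low value, with 9.63 for miR-125b-5p, 9.09 for miR-143, 10.84 for miR-145, 8.90 for miR-150, 8.96 for miR-29b, 9.40 for miR-378, 12.45 for miR-192, 14.02 for miR-215 and 12.77 for miR-200c. The groups were those of miRNAs named in the text and of detected-probe counts. Some miRNAs were named after their values were seen, and the groups share the same arrays. The 5% that chance flags in independent groups is therefore no yardstick for this share. Nor does the low direction hold for all tested probes, where V3 replicate 4 was lowest of the 8 arrays for 90 and highest for 117. V3 replicate 1 stood apart for miR-99b at 10.20, above the other V3 arrays, and V3 replicate 2 for miR-223 at 10.70, below them. V0 replicate 2 was low for miR-215 at 15.90, by a small margin. V0 replicate 1 stood apart by its 326 detected probes before normalization, the fewest of its fraction.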

How the results depend on the processing

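The rank-sum test, exact except for probes with tied values, could not give a call, since its smallest p of 0.0286 was 0.472 after adjustment. The count of 0 calls held with quantile normalization of the 8 arrays alone, neqc, no detection filter, stricter and looser detection filters, slide as a random block, the 8 or the 16 villus arrays alone, and eBayes with trend. Without normalization 1 probe was called (miR-199b*, higher), with a trend count of 1 and a median difference of 0.75 over all probes. With arrays centred on their median 2 were called (miR-199b* and miR-24-2*, both higher; trend 1, median 0.066). Slide as a fixed block gave 7 (3 higher, 4 lower; trend 7), slide 2 alone 1 higher (miR-689; median 0.026), the fixed block without V3 replicate 4 gave 5 (2 higher, 3 lower; trend 7, median 0.099), and a covariate of each array's detected probes 2 higher (miR-199b* and miR-199a-3p:9.1; trend 2, median 0.066). With detection required on all 8 arrays the median was -0.23, and 6 of 11 lists had a median above 0, against 15 of 20. Leaving out 1 array gave 0 to 5 calls, 0 to 5 higher and 0 lower, 0 to 5 trend calls and a median of -0.14 to 0.031, or -0.15 to 0.056 with the 321 probes kept fixed. The 5 came without V0 replicate 1 (miR-100, miR-127, miR-145*, miR-350 and miR-9), with 0 when the 321 probes were kept fixed. Without V0 replicate 4 miR-24-2* alone was called (limma adjusted p = 0.0382), and without V3 replicate 4 miR-199a-3p:9.1 alone.

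Some signs turned. Without normalization miR-302b was 0.39 and miR-335-5p 0.69. Centring gave miR-335-5p 0.0060 and miR-194 -0.088. Slide as a fixed block gave miR-451 -0.077 and miR-194 -0.076, and as a random block miR-194 -0.020. Slide 2 alone gave miR-451 -0.16, miR-194 -0.049 and miR-375 0.039. Without the weak arrays miR-7b was -0.13, miR-192 -0.14 and miR-200c -0.042. The fixed block without V3 replicate 4 gave miR-451 -0.89, miR-29b -0.71, miR-302b 0.57, miR-335-5p 0.50, miR-192 -0.13 and miR-200c -0.015. Leaving out 1 array, miR-194 ranged from -0.061 to 0.25 (-0.057 without V3 replicate 3), miR-22 from -0.11 to 0.82 (-0.022 without V3 replicate 4), miR-378 from -0.044 to 1.79, miR-378* from -0.10 to 1.06, miR-335-5p from -0.69 to 0.16, miR-192 from -0.11 to 0.93 and miR-200c from -0.012 to 0.99. The cause was not tested. No paired analysis was possible because no label ties an array to a mouse and the array titles carry no replicate number.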

Other observations

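The imprinted Dlk1-Dio3 cluster on mouse chromosome 12, active in stem and mesenchymal cells, had 21 tested probes, of which 8 had the higher mean in V0 and 13 the lower (median -0.08, but 0.80 without normalization and 0.12 with arrays centred on their median). miR-127, a member detected on 3 V0 arrays and on 0 V3 arrays, read 8.86, 10.29, 9.98 and 10.36 in V0 and 8.64 to 8.76 in V3, at least 1.39-fold higher in V0 against the lowest detected signal. miR-145* was at least 2.09-fold higher by the same bound. The Sfmbt2 cluster, a rodent-specific array of repeated hairpins, had 20 tested probes with both directions among them, from -2.11 for miR-466g to 2.06 for miR-466d-3p (median -0.30, but 0.77 and 0.084 under the same alternatives).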
